A study of Mus musculus with 12 samples.

Results

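Neutrophil granule genes were examined in the dorsal root ganglia (DRG) of mice whose Schwann cell lineage lacked Nf2 alone or Nf2 together with the gene encoding focal adhesion kinase. The set comprised 10 of the 49315 genes in the count table, chosen by name: Mpo, Elane, Ngp, Ltf, Camp, Lcn2, S100a8, S100a9, Retnlg and Ly6g. Neutrophils fill their granules in sequence as they mature in the bone marrow. Promyelocytes make the enzymes of the azurophil granules, myelocytes and metamyelocytes make the proteins of the specific granules, and the latest forms, which leave the marrow for the blood, carry the surface and cytosolic proteins of the mature cell. Transcripts of the azurophil enzymes are therefore rare in circulating neutrophils and abundant in marrow precursors. The genes were grouped accordingly into 2 azurophil granule genes (Mpo and Elane), 4 specific granule genes (Ngp, Ltf, Camp and Lcn2) and 4 late and mature genes (S100a8, S100a9, Retnlg and Ly6g).

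DRG were taken from 12 mice aged 10 months, and each mouse gave 1 library. The Nf2 mice (n = 6) were Postn-Cre(+);Nf2 flox/flox, and the DKO mice (n = 6) carried Fak1 flox/flox in addition, so both genotypes carried the Cre transgene and the floxed Nf2 alleles. The comparison with DKO mice asked what loss of Fak, the gene annotated as Ptk2, changed in tissue that develops schwannomas. The Periostin-driven Cre acts in Schwann cells and their precursors, so other cells of the ganglion keep both genes, and about 8 DRG of a mouse were pooled in its library. Each genotype had 3 mice labelled male and 3 labelled female, and no mouse had unmodified Nf2 alleles.

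Total counts per mouse ran from 21129191 to 41250329 reads, and levels are given as CPM, the counts of a gene scaled to the library total. Nf2 was at 109 to 143 CPM in Nf2 mice and 99.2 to 132 CPM in DKO mice. Ptk2 was at 65.8 to 75.5 CPM and 46.5 to 76.0 CPM, and it did not pass the test in DKO mice (log2 fold change -0.15, SE 0.10, adjusted p = 0.529, edgeR). A gene-level count takes in exons outside the floxed part and cells that were not targeted, so it is no strict check of the deletion. Mouse 702, labelled male, had 496 CPM of the female transcript Xist and 0.525 CPM of the Y-linked Ddx3y, so it went against its label, and tests by sex are given with and without it. Mitochondrial genes took 4.45% of the counts in mouse 649 (Nf2) and 5.60% in mouse 887 (DKO), against 1.99% to 3.15% in the other 10 mice. The markers of the labelled tissue were high in every mouse, with a summed level of 7487 to 10970 CPM for 6 Schwann cell genes and 3041 to 4188 CPM for 6 sensory neuron genes.

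By position, 3 of the 4 specific granule genes lay on 1 chromosome, and the calprotectin genes were neighbours. In GENCODE M21 on GRCm38, Camp (chr9:109847379-109849617, minus strand), Ngp (chr9:110419747-110423012, plus strand) and Ltf (chr9:111019271-111042767, plus strand) fell within 1.20 Mb. S100a8 (chr3:90668978-90670035) and S100a9 (chr3:90692632-90695721) stood 22.6 kb apart. Ly6g (chr15:75155240-75159126) was 1.73 Mb from Ptk2, on the chromosome of the deleted gene. Mpo (chr11:87793581-87804413) shared 512 exon bases with Gm11505 on the opposite strand, whose highest count in any mouse was 6, and whether strand was used in counting was not given in the sources used here. All 10 genes are protein coding.

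The upstream sequence of these genes is shown because C/EBP proteins and PU.1 are the transcription factors best known for switching on granule genes, PU.1 throughout the myeloid line and C/EBP epsilon at the step to specific granules. The RefSeq promoter table (GRCm38.p6) held all 10 genes, and the 250 bases before each RefSeq start, which for several genes lies inside the GENCODE gene, were searched on both strands. The C/EBP letters TTGCNNAA occurred before 6 of the 10 genes, against 9.56% of all 32851 promoters in the table. They occurred before 0 of 2 azurophil genes, 3 of 4 specific granule genes (Ngp, Ltf and Lcn2) and 3 of 4 late and mature genes (S100a9, Retnlg and Ly6g). In the stretches printed here, 5′ to 3′ on the strand of the gene, capitals mark the match or its reverse complement.
Ngp, chr9:110419624-110419723, plus strand: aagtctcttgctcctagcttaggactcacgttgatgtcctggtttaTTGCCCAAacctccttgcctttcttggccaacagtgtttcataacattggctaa
Ltf, chr9:111019171-111019270, plus strand: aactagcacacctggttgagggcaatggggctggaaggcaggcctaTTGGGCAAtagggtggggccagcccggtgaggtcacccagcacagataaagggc
S100a9, chr3:90695904-90695971, minus strand: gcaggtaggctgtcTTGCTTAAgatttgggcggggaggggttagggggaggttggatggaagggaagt
Retnlg, chr16:48872358-48872415, plus strand: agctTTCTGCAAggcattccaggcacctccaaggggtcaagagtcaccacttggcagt
Ly6g, chr15:75155011-75155082, plus strand: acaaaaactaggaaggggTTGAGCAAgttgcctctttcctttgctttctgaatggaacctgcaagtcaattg

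The PU.1 letters GAGGAAG occurred before 5 of the 10 genes, against 10.6% of all promoters, including both azurophil genes, Lcn2, S100a8 and Ly6g. These stretches are shown for the azurophil genes, which had no C/EBP match, and for S100a8, with the match or its reverse complement in capitals.
Mpo, chr11:87793534-87793580, plus strand: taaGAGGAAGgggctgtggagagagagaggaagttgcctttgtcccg
Elane, chr10:79886181-79886246, plus strand: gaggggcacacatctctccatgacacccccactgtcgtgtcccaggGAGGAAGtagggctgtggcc
S100a8, chr3:90668854-90668952, plus strand: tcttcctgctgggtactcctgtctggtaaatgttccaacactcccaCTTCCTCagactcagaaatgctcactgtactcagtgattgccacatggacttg
The Mpo promoter held GAGGAAG a second time within the same stretch. The matches of Lcn2 lay in an annotated exon and are named only, and Camp had a match to neither. These patterns were the 2 shown of 7 tried. Before the same 10 genes, the longer C/EBP form TTGCNNAAT matched 1 gene (2.11% of promoters), the looser TTNNGNAA 7 (36.8%), the shorter PU.1 form GGAAGT 5 (19.7%), the core-binding factor letters TGTGGT 1 (14.0%) and the MYB letters AACNG 10 (74.2%). A match of letters is a description and not a binding site.

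The genes were low on average and differed widely between mice of the same genotype. Mpo, the myeloperoxidase that makes hypochlorous acid in azurophil granules, was at 1.06 CPM in the lowest Nf2 mouse, 3.58 at the median and 20.5 in the highest. In DKO mice it ran from 1.18 through a median of 7.50 to 14.2 CPM. The lowest mice were 649 among Nf2 and 887 among DKO mice, the highest were 1049 and 917, and the DKO values lay inside the Nf2 range. Elane, the serine protease neutrophil elastase, was at 0.150 (4 reads, mouse 702), 1.56 (median) and 8.30 CPM in Nf2 mice and at 0.379, 2.85 and 5.92 CPM in DKO mice. For Elane the lowest Nf2 mouse was thus 702 and not 649, which had 15 reads.

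**Figure D1:**
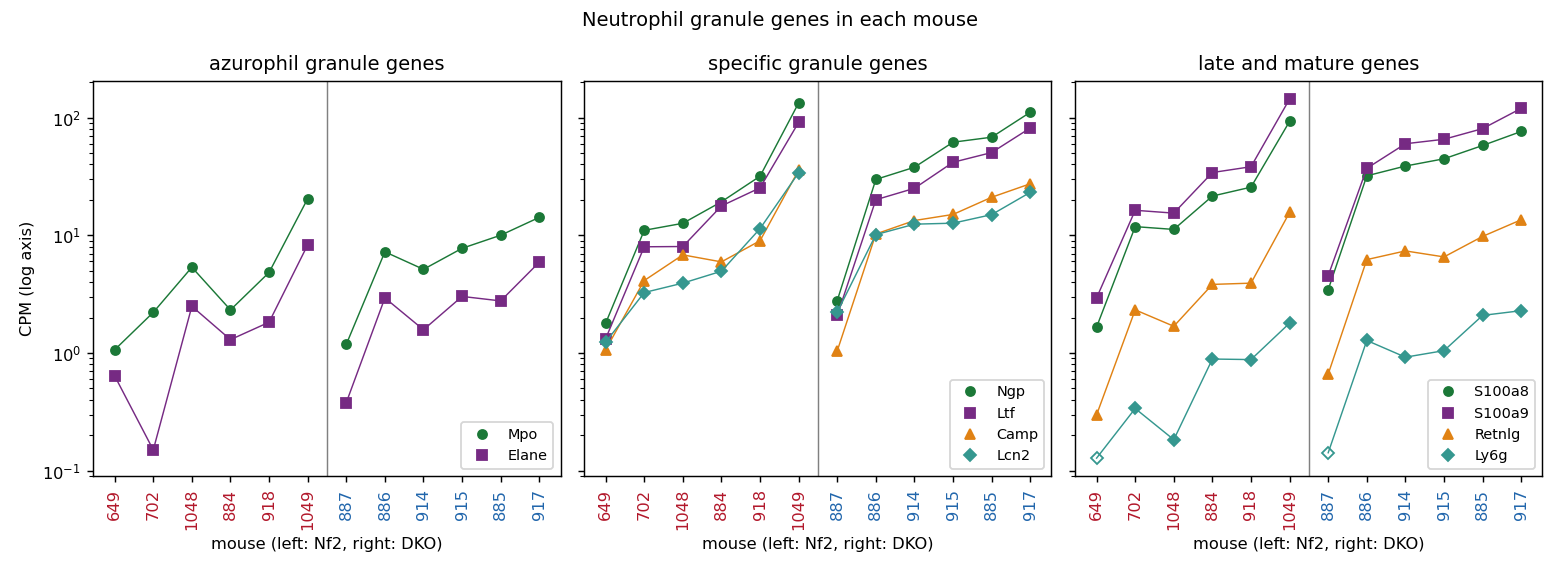
CPM on a log axis in each mouse, by stage, with mice ordered within genotype by the summed CPM of the 10 genes; open symbols stand at the level of 3 reads for the 2 mice in which Ly6g had no read. In each panel the levels climb from mouse 649 to mouse 1049 (Nf2) and from mouse 887 to mouse 917 (DKO), with dips such as those of Elane in mouse 702 and of Mpo and Elane in mouse 884, and the 2 genotypes overlap.

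Among the specific granule genes, Ngp, a cathelicidin-related granule protein, was at 1.79, 16.0 and 133 CPM in the lowest, median and highest Nf2 mouse and at 2.79, 49.9 and 111 CPM in DKO mice. The highest mouse was therefore 74.6 times the lowest, the widest range of the 9 genes with reads in every mouse. Ltf, which encodes the iron-binding protein lactoferrin, ran from 1.32 through 12.9 to 91.2 CPM in Nf2 mice and from 2.08 through 33.4 to 81.7 CPM in DKO mice. Camp, the precursor of the antimicrobial peptide cathelicidin, ran from 1.06 through 6.38 to 35.8 CPM and from 1.04 through 14.2 to 27.4 CPM. Mice 649 and 887 were again the lowest and mice 1049 and 917 the highest, and for Camp the lowest DKO mouse was just below the lowest Nf2 mouse. Lcn2, the siderophore-binding lipocalin that other tissues can also make, ran from 1.24 through 4.44 to 34.0 CPM in Nf2 mice and from 2.22 through 12.6 to 23.2 CPM in DKO mice. Genotypes overlapped for all 4 genes.

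S100a8 and S100a9, the subunits of calprotectin, were the most abundant of the late and mature genes. S100a8 was at 1.66, 16.7 and 93.0 CPM in the lowest, median and highest Nf2 mouse and at 3.45, 41.7 and 76.3 CPM in DKO mice. S100a9 was at 2.94, 25.2 and 144 CPM in Nf2 mice and at 4.54, 62.7 and 120 CPM in DKO mice. The mice at both ends were the same as for Ngp. Retnlg, a resistin-like protein secreted by neutrophils, ran from 0.298 through 3.08 to 15.7 CPM and from 0.663 through 6.96 to 13.6 CPM. Ly6g, the surface protein by which mouse neutrophils are usually stained, was the scarcest, with 0 to 55 reads. It had no read in mice 649 and 887, which allows up to 0.128 and 0.142 CPM (3 reads, counting error only), and was at 0.183 to 1.79 CPM in the other Nf2 mice and 0.921 to 2.29 CPM in the other DKO mice. The medians were 0.608 CPM in Nf2 and 1.16 CPM in DKO mice, and the genotypes overlapped for all 4 late and mature genes.

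Per kilobase of exon, the order of levels was S100a9, S100a8, Ngp, Camp, Retnlg, Ltf, Lcn2, Elane, Mpo and Ly6g, with means over 12 mice from 98.8 CPM per kb for S100a9 to 1.04 for Ly6g. The first 4 steps, from S100a9 to Retnlg, held in 12 of 12 mice. S100a9 exceeded S100a8 by 0.93 ± 0.14 on the log2 scale (SD, n = 12), the most even step. The SD over mice exceeded the mean step for Retnlg over Ltf (0.28 ± 0.34, this order in 8 of 12 mice). So it did for Lcn2 over Elane (0.57 ± 0.58, 10 of 12) and Elane over Mpo (0.25 ± 0.40, 10 of 12). Whether the mean of these steps differed from 0 was not tested. Both azurophil genes thus stood below every specific granule gene on average but were not the lowest.

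Across mice, the 10 genes varied together. Over the 45 pairs, Pearson's r of log2(CPM + 0.5) ran from 0.783 to 0.997 with a median of 0.964 (n = 12 mice), and Spearman's rho from 0.797 to 1. The largest two-sided permutation p was 0.0028 (100000 resamples, 0.0028 after Benjamini-Hochberg adjustment over the 45 pairs). Ngp and Ltf had the tightest pair (r = 0.997, rho = 0.993), followed by S100a8 with S100a9 (r = 0.997, rho = 0.993).

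The lowest correlations were those of Elane. The 28 pairs among the 8 specific, late and mature genes had r from 0.930 to 0.997. Mpo had r from 0.869 to 0.964 with these 8 genes, and Elane had r from 0.783 (with Ly6g) to 0.932 (with Mpo) with the other 9. Without mouse 702, which had 4 Elane reads, each r of Elane was higher, from 0.809 (with Ly6g) to 0.970 (with Mpo). When the 2 mice farthest from the median of the first gene were left out, r ran from 0.816 to 0.993. Within the 6 Nf2 mice r ran from 0.674 to 0.998 (largest exact permutation p = 0.136), and within the 6 DKO mice from 0.902 to 0.999 (largest exact permutation p = 0.0236). Every r was thus positive within each genotype, and the Nf2 pairs that did not pass an exact p of 0.05 with 6 mice all involved Elane or Mpo, where the smallest possible exact p is 0.00139. Without mice 649 and 887 the lowest r was 0.681 and all 45 pairs still passed after adjustment.

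**Figure D2:**
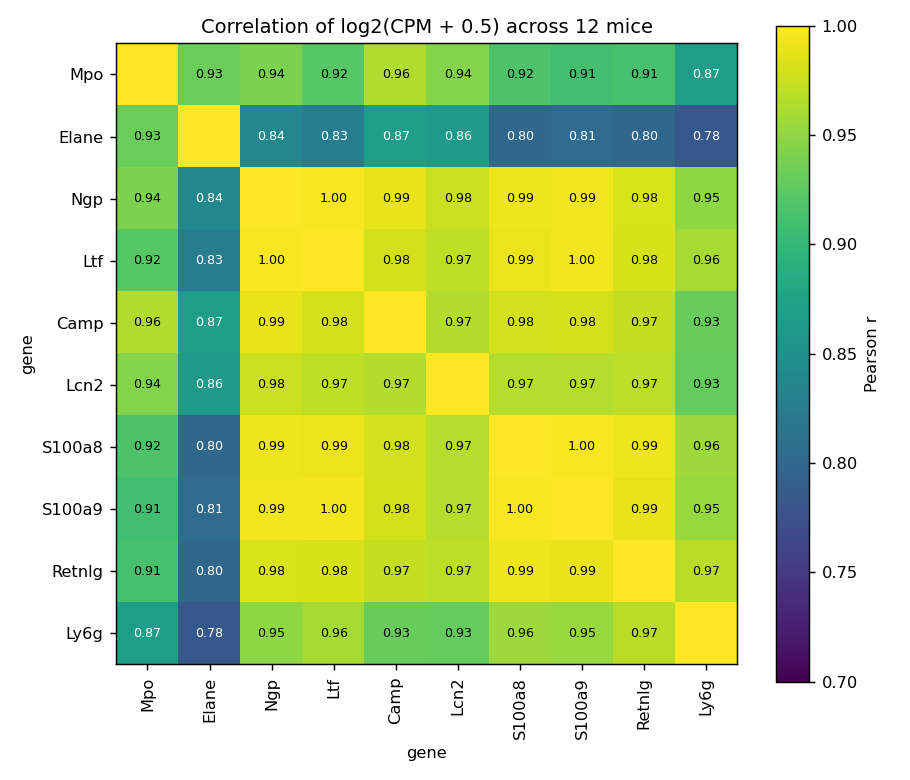
Pearson's r of log2(CPM + 0.5) across 12 mice for each pair of genes, in colour from 0.7 to 1 and printed in each cell, with genes ordered by stage. The block of 8 specific, late and mature genes has r of at least 0.930, and the row of Elane is the lowest, down to 0.783.

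The balance of stages was compared as shares of the reads of the 10 genes. Summed over these genes, the level was 12.0 CPM in mouse 649 and 18.4 CPM in mouse 887, 59.6 to 578 CPM in the other Nf2 mice and 157 to 476 CPM in the other DKO mice. Late and mature genes took 40.8% to 54.0% of the reads and specific granule genes took 42.8% to 51.2%. The log2 ratio of late to specific reads stayed between -0.21 and 0.33 in all 12 mice, although the summed level differed between mice by much more than that.

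The azurophil share varied more. Mpo and Elane took 3.23% to 4.98% of the reads in 8 mice and 6.48% (95% exact Clopper-Pearson interval 5.71% to 7.32%) in mouse 886. The share was 8.51% (5.93% to 11.7%) in mouse 887, 11.6% (10.15% to 13.1%) in mouse 1048 and 14.2% (10.3% to 18.8%) in mouse 649. Intervals cover counting error only. The intervals of mice 649, 887, 1048 and 886 lay above those of the 8 mice. Mice 649 and 887 were the 2 with the lowest summed level and the highest mitochondrial share, while that share was 3.15% in mouse 1048 and 2.20% in mouse 886. The part of summed level and mitochondrial share in this was not tested. The share of azurophil reads was 7.05% ± 4.63 in Nf2 and 5.12% ± 1.98 in DKO mice (SD, n = 6 each), so the genotypes overlapped. The log2 ratio of late to azurophil reads was 2.94 ± 1.02 in Nf2 and 3.30 ± 0.53 in DKO mice, a difference smaller than the spread.

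**Figure D3:**
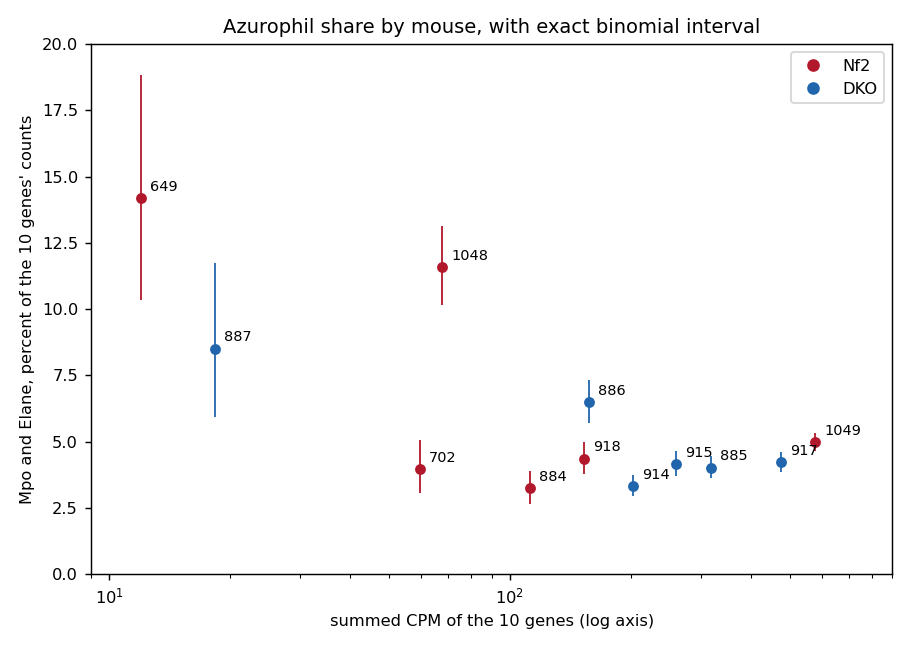
Percent of the 10 genes' reads taken by Mpo and Elane (vertical axis) against the summed CPM of the 10 genes (log axis) in each mouse, coloured by genotype, with 95% exact binomial intervals. Mice 649 (14.2%), 1048 (11.6%) and 887 (8.51%) stand above the others, of which the next is mouse 886 at 6.48%.

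Within the azurophil pair, Elane took 21.7% to 37.5% of the Elane and Mpo reads in 11 mice. In mouse 702 it took 6.35% (4 of 63 reads, interval 1.76% to 15.5%) and this interval lay below those of the other mice except mouse 887 (11.1% to 42.3%). Mpo itself had 59 reads in that mouse.

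No neutrophil granule gene differed between genotypes by the test. With edgeR's quasi-likelihood test, 0 of the 10 genes passed an adjusted p of 0.05 and 0 passed an unadjusted p of 0.05, where 172 of 18295 tested genes (0.94%) passed the first and 2722 (14.9%) the second. DESeq2, limma voom with sample quality weights and limma-trend also called 0 of the 10. Over all 18295 tested genes they called 818, 521 and 179. The genotypes overlapped in CPM for every one of the 10 genes, as they did for all but 356 (1.95%) of the tested genes. All 10 genes passed the filter on low counts, and adjusted p ran from 0.641 (Ly6g) to 0.943 (Elane).

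The fold changes were nonetheless all above 0, as were those of 51.0% of all tested genes. The azurophil genes had the smallest log2 fold changes, 0.32 (SE 0.63) for Mpo and 0.16 (SE 0.70) for Elane, and Ly6g had the largest, 0.87 (SE 0.73). The specific granule genes ran from 0.35 (Lcn2) to 0.56 (Ngp), and S100a8, S100a9 and Retnlg were at 0.60, 0.54 and 0.66, with SE from 0.66 (Lcn2) to 0.82 (Ngp) over these 7 genes. For every gene 5 of 6 DKO mice, all but mouse 887, exceeded the Nf2 median. The approximate 95% intervals were wide. That of Ngp ran from -1.04 to 2.16 and that of Mpo from -0.92 to 1.55 on the log2 scale. They used the SE with a normal multiplier and not the F distribution of the test, so they were somewhat too narrow. Both took in a 2-fold rise in DKO mice. That of Ngp took in a 2-fold fall as well, and that of Mpo ended too near to a 2-fold fall to exclude it. Since the genes move together, they do not count as 10 separate observations of a direction.

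The spread within genotypes was far above that of most genes. The SD of log2(CPM + 0.5) within genotypes ran from 0.85 (Ly6g) to 1.86 (Ngp), against a median of 0.21 over all tested genes, which put the 10 genes at the 98.6 to 99.9 percentile. The median log2 fold change of the 10 genes was 0.53, against 0.005 over all tested genes. Without mouse 1049 (Nf2), the highest mouse, the median was 1.45 and the lowest adjusted p 0.272. Without mouse 917 (DKO) it was 0.20, and without mice 649 and 887 it was 0.52 with 0 of 10 genes called, where 314 of 18371 genes (1.71%) were. In bulk tissue, a difference in the number of neutrophils and one in the RNA per neutrophil cannot be told apart.

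**Figure D4:**
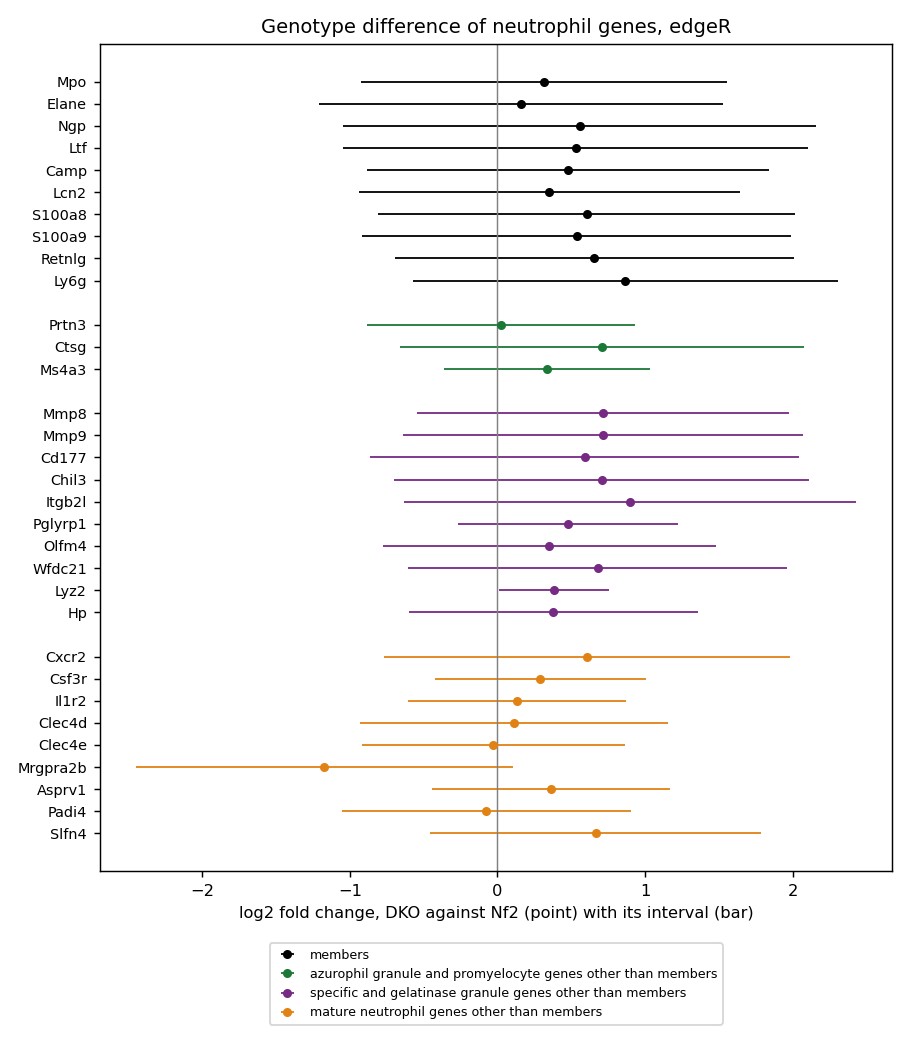
Log2 fold change, DKO against Nf2, from edgeR (points) for the 10 genes and for other neutrophil genes by list. Bars are approximate 95% intervals from the SE with a normal multiplier. All 10 bars cross 0, and the points run from 0.16 (Elane) to 0.87 (Ly6g).

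By labelled sex, the genotype difference of 9 of the 10 genes, all but Ly6g, had opposite signs in females and males. In Nf2 mice Ngp was at 59.3 ± 64.9 CPM in females and 10.7 ± 8.75 CPM in males (SD, n = 3 each). In DKO mice it was at 33.6 ± 32.9 CPM in females and 70.3 ± 37.3 CPM in males. Mpo was likewise higher in females among Nf2 mice and in males among DKO mice. It was at 10.2 ± 8.89 and 1.87 ± 0.70 CPM in Nf2 females and males and at 6.15 ± 4.52 and 9.03 ± 4.67 CPM in DKO females and males. Without mouse 702, the 2 other Nf2 males were at 1.79 and 19.3 CPM for Ngp and at 1.06 and 2.32 CPM for Mpo.

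The interaction of genotype with sex was between 1.42 (Ly6g) and 3.48 (Ngp) on the log2 scale, but 0 of 10 genes passed after adjustment (lowest adjusted p = 0.920, edgeR), where 2 of 18295 genes (0.0109%) did. At an unadjusted p of 0.05, 5 of the 10 passed (Mpo, Elane, Ngp, Camp and Lcn2), where 874 of all genes (4.78%) did. Without mouse 702, these were 3 of the 10 (Mpo, Elane and Lcn2, with 5.21% of all genes), the lowest adjusted p was 0.772 and 0 of the 10 passed after adjustment, where 0.0108% of all genes did. Between males and females over both genotypes, 0 of the 10 passed, adjusted or not (3 of all genes, 0.0164%, passed after adjustment), with log2 differences of males against females from -0.88 to -0.37, and from -0.66 to -0.14 without mouse 702, when again 0 of the 10 passed and 0.054% of all genes did. Among DKO mice the female group held mouse 887, and among Nf2 mice the male group held mouse 649, so the 2 lowest mice were both in the lower sex of their genotype.

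Other neutrophil genes were read beside these. Of 11 other specific and gelatinase granule genes, 10 were tested, 0 passed and all 10 had a fold change above 0 (median 0.63). Their mean r to the 10 genes ran from 0.848 to 0.961. In this list, Lyz2, the lysozyme gene that macrophages also express, was at 95.0 ± 24.0 CPM in Nf2 and 126 ± 33.3 CPM in DKO mice (adjusted p = 0.372), Chil3, a chitinase-like protein, at 10.4 ± 13.3 and 17.2 ± 11.3 CPM (0.703) and Mmp9, the gelatinase, at 5.95 ± 7.64 and 9.87 ± 6.50 CPM (0.688).

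Of 4 other azurophil and promyelocyte genes, 3 were tested and 0 passed. Prtn3, the protease proteinase 3, had a mean r to the 10 genes of 0.902 and Ctsg, cathepsin G, of 0.920, but Ms4a3, a membrane protein of granulocyte precursors, of -0.05. Ms4a3 was at 3.39 ± 0.87 CPM in Nf2 and 4.32 ± 2.06 CPM in DKO mice, so it was expressed at a level like that of Prtn3 (3.03 ± 2.79 and 3.11 ± 1.27 CPM) but did not follow the others. Of 13 other mature neutrophil genes, 9 were tested and 0 passed, and 5 had a mean r of at least 0.8. These 9 included Csf3r, the receptor for granulocyte colony-stimulating factor (r = 0.845), the interferon-responsive Slfn4 (0.929) and Mrgpra2b (0.043). Mrgpra2b was at 3.57 ± 1.55 CPM in Nf2 and 1.58 ± 1.55 CPM in DKO mice (adjusted p = 0.435, edgeR). Sensory neurons of the ganglion also make receptors of its Mrgpr family, and which cells its reads came from was not tested.

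Over all 18285 other tested genes, the median of the mean r to the 10 genes was 0.099, and 40 genes (0.219%) reached 0.9 and 282 (1.54%) reached 0.8. The most alike genes were ranked without symbols that begin with Gm or end with Rik. Among the 5 most alike of these were Cd177 (0.961), a neutrophil surface protein, Nfe2 (0.953), a transcription factor of the erythroid and megakaryocyte lines, Mmp9 (0.953) and Mmp8 (0.952), the neutrophil collagenase. These values are a description over 12 mice, and the mice share their differences in depth and composition.

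Genes of the red cell line varied with the neutrophil genes. Of 9 erythroid precursor genes tested, 8 had a mean r of at least 0.8, among them Slc4a1, the anion exchanger of the red cell membrane (0.916), and Ermap (0.937). The 5 globin and haem synthesis genes had a mean r of 0.861 to 0.897, with Hba-a1 at 137 ± 94.1 CPM in Nf2 and 230 ± 122 CPM in DKO mice. Their summed level was 36.4 CPM in mouse 649 and 59.7 CPM in mouse 887, the 2 lowest mice, and 129 to 763 CPM in the other 10. Summed erythroid precursor genes ran from 3.66 to 68.4 CPM in Nf2 mice and from 4.12 to 74.3 CPM in DKO mice. None of the 14 genes passed the genotype test (edgeR), with 1 at an unadjusted p of 0.05.

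Lists of other cells were more mixed. The 6 proliferation genes had a median of the mean r of 0.713. Among them Mki67, a marker of dividing cells, had 0.914, and only Pcna, at 0.048, lay near 0. Of 5 B cell genes, 1 had a mean r of at least 0.8. All 5 had higher means in DKO mice (median log2 fold change 1.40) and an unadjusted p under 0.05, but 0 passed after adjustment (Pax5, the B cell transcription factor, adjusted p = 0.0798, edgeR), and 0 of 6 precursor B cell genes had counts enough to be tested (summed 0.256 to 2.16 CPM). The 5 platelet genes tested ran from -0.55 (Gp1bb) to 0.867, with Itga2b at 0.586 and Pf4 at 0.507, and the 3 eosinophil genes tested ran from 0.513 to 0.712. Of 6 bone genes, Ibsp, a protein of mineralized matrix, had 0.844 and Ctsk, the osteoclast protease, had -0.31. Among 5 mast cell genes 1 reached 0.8, but Tpsb2 was at -0.03 and Cpa3 at 0.24.

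Macrophage and nerve genes had medians near or below 0. The median of the mean r was -0.04 over 12 macrophage and monocyte genes, with Csf1r at -0.04 and Ly6c2, which inflammatory monocytes express and which was picked out after its value was seen, at 0.924. Within genotypes the mean r of these 12 genes ran from -0.62 (Aif1) to 0.921 (Ly6c2), with Csf1r at 0.294. C1qb, a complement subunit of macrophages, was the only gene of all these lists past the genotype test. It was also 1 of 7 macrophage genes with an unadjusted p under 0.05. C1qb was at 37.0 ± 6.40 CPM in Nf2 and 22.9 ± 2.86 CPM in DKO mice (log2 fold change -0.71, SE 0.12, adjusted p = 0.0138, edgeR). Its mean r to the 10 genes was -0.22 over all mice and 0.057 within genotypes. Schwann cell genes (median -0.13, from -0.59 to 0.216) and sensory neuron genes (median -0.32, from -0.70 to 0.568) had medians below those of the red cell lists. The 2 satellite glia genes were apart, Fabp7 at -0.54 and Kcnj10 at 0.489, so their median of -0.02 describes neither. The 6 skeletal muscle genes had a mean r of 0.204 to 0.361 over all mice and of 0.412 to 0.573 within genotypes. Their summed level had a median of 349 CPM in Nf2 and 64.2 CPM in DKO mice, with a median log2 fold change of -2.09, 5 of 6 genes at an unadjusted p under 0.05 and 0 of 6 past the adjusted threshold (edgeR). Of the bone and mast cell genes, 1 and 2 had an unadjusted p under 0.05. The part of any of these cells in the level of the neutrophil genes was not tested.

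**Figure D5:**
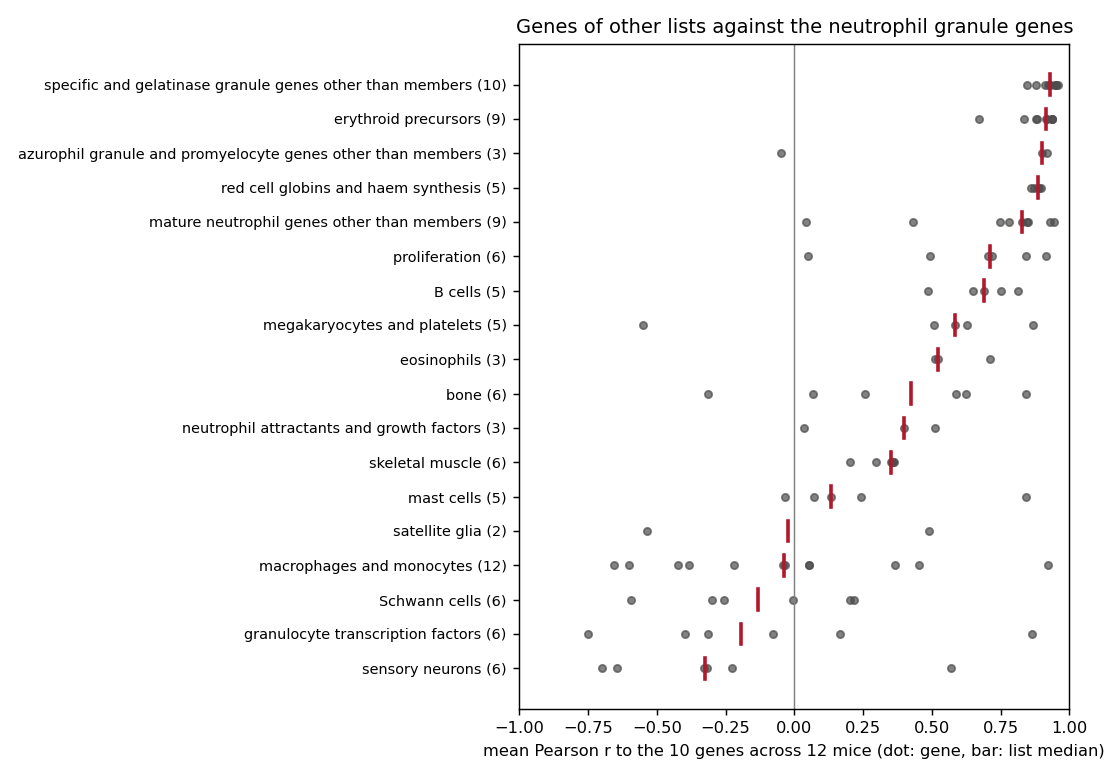
Mean Pearson r of each tested gene to the 10 neutrophil granule genes across 12 mice (dots), by list, with the list median (bars) and the number of tested genes in parentheses. Specific granule, erythroid, azurophil and globin lists have medians from 0.887 to 0.930, and macrophage, Schwann cell and sensory neuron lists have medians near or below 0.

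The factors and signals that control neutrophils were read last. Of 7 granulocyte transcription factors, 6 were tested and 0 passed, with 2 at an unadjusted p of 0.05. Cebpe, which drives the specific granule genes and was picked out for that role, was scarce. It was at 0.735 ± 0.778 CPM in Nf2 and 1.05 ± 0.76 CPM in DKO mice and had a mean r of 0.864. Spi1, the gene of PU.1, was at 7.27 ± 1.40 CPM in Nf2 and 6.12 ± 2.00 CPM in DKO mice. Its mean r was 0.164. Cebpd (-0.40), Cebpa (-0.31) and Runx1 (-0.75), which are not limited to granulocytes, had negative values, as did Cebpb (-0.077). The median over the 6 tested factors was -0.195. Cebpd was at 73.7 ± 17.4 CPM in Nf2 and 48.0 ± 12.3 CPM in DKO mice (adjusted p = 0.111). Of 7 attractants and growth factors, 3 were tested and 0 passed: Cxcl12, which holds neutrophils in the marrow, at 64.4 ± 11.4 and 63.9 ± 4.03 CPM, its receptor Cxcr4 at 6.56 ± 2.61 and 7.45 ± 1.78 CPM, and Cxcl1, which draws neutrophils to a site of injury, at 0.756 ± 0.184 and 0.456 ± 0.283 CPM (adjusted p = 0.362). Csf3, the growth factor of the granulocyte line and also picked out for its role, had at most 2 reads in any mouse. The other genes of this list that were left out of the test had at most 22 reads in a mouse. Each had a lower mean in DKO mice, but the filter on low counts kept these genes out of the main test.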

How the data were processed

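DRG of 12 mice were profiled by RNA sequencing at a commercial provider, after RNA extraction with DNase treatment and poly(A) selection. Per the submitters' processing notes, reads were processed with Trimmomatic 0.36, STAR 2.5.2b and featureCounts of Subread 1.5.2 on GRCm38. The strand setting and the treatment of reads with several matches were not given in the sources used here, and Ly6g and Retnlg have close relatives that could share such reads. The authors deposited raw counts, whole reads per Ensembl gene and mouse without normalization. Of the 49315 gene identifiers 99.3% were present in GENCODE M21, which gave coordinates and exon lengths.

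Genes were filtered by filterByExpr, TMM factors scaled the libraries, and genotypes were compared in all 12 mice by the quasi-likelihood F test of edgeR 4.0.16 in R 4.3.3, with Benjamini-Hochberg adjustment over all 18295 tested genes and a threshold of 0.05. Labelled sex was added to the model for the sex difference, and its product with genotype for the interaction. CPM values were counts over the library total, and correlations used log2(CPM + 0.5) with permutation tests. Alternatives used limma 3.58.1, DESeq2 1.42.0, other factors, filters and subsets of mice, and leaving out each mouse. Leaving out mice 649 and 887 together was added after seeing the data, as were the alternatives for the correlations. Summaries used Python 3.11.15, pandas 2.3.3 and scipy 1.17.1, and plots matplotlib 3.10.9. Fits and correlations were tested on simulated data. There, false calls made up 17.7% of the calls of DESeq2. They made up 4.19% for edgeR, 3.03% for limma voom and 4.14% for limma-trend.

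The 10 genes, their grouping and the other lists were chosen with earlier results of these data known. The text names the 10 genes, any list gene past the threshold, up to 3 further genes of each list by mean CPM, and the 5 genes most alike, except for genes that are not reported here. Spi1 and Cebpb were added so that each tested granulocyte transcription factor is named with its mean r. Ahsp and Siglecf were not found under those symbols. The promoter patterns shown were picked after 7 had been tried.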

Additional observations from a re-analysis of the deposited data

Results flagged for a closer look

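Mouse 887 (DKO) stood far below the other 5 DKO mice. On the log2(CPM + 0.5) scale it was at 1.72 for Ngp where the next mouse, 886, was at 4.92, at 0.62 for Camp (next 3.43), at 1.45 for Lcn2 (3.41), at 1.98 for S100a8 (5.02), at 2.33 for S100a9 (5.23) and at 0.22 for Retnlg (2.75). The summed level of the 10 genes was 4.20 on the log2 scale, where mouse 886 was at 7.30. Its mitochondrial share was the highest of the DKO mice, 5.60% where the next, mouse 917, was at 2.52%. The part of RNA quality in these values was not tested. Mouse 702 (Nf2) had the lowest share of Elane in the reads of Elane and Mpo, 6.35% where the next mouse of its genotype, 918, was at 27.4%. These were 9 of 38 groups of 6 mice examined for a sample far from the rest. Chance marks about 1 in 20 groups, or 1.9 of 38, and the genes of mouse 887 are not separate instances because they vary together.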

How the results depend on the processing

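None of the 10 genes was called for genotype under any of 25 alternatives, for which the lowest adjusted p was 0.254 (Mpo, males only). The median log2 fold change of the 10 genes was 0.53, ran from 0.20 (without mouse 917) to 1.45 (without mouse 1049) when a mouse was left out, was -0.71 in females only, and moved to 2.23 in males only and to 2.23 in males without mouse 702. Of 249 combinations of gene and alternative 12 changed sign. In females only, 9 genes did: Mpo (-0.73), Elane (-1.04), Ngp (-0.82), Ltf (-0.78), Camp (-0.67), Lcn2 (-0.85), S100a8 (-0.48), S100a9 (-0.70) and Retnlg (-0.35). Elane also did without mouse 649 (-0.04), 702 (-0.10) or 917 (-0.20), and was highest without mouse 1049 (1.07). Ly6g was not tested with a filter of 1 CPM in 6 mice. Over all genes, calls for genotype numbered 172, and 818 with DESeq2, 521 with limma voom, 57 in females, 2 in males, 9 in males without mouse 702, 314 without mice 649 and 887, and 81 to 217 without any single mouse. Calls for sex numbered 3, 0 with the filter of 1 CPM in 6 mice, and 0 to 10 without a mouse. Calls for the interaction were 2, and 2 to 6 without a mouse. Genes of the other lists called for genotype numbered 1, 7 with DESeq2 and 1 to 3 without a mouse. The cause of these changes was not tested. All 45 correlations passed in each of 14 alternatives, with the lowest r from 0.681 to 0.834. The difference in the log2 ratio of late to azurophil reads was 0.07 to 0.58 without a mouse. No paired analysis was possible because each mouse has its own number and the genotypes share none. Ly6g had at most 55 reads in a mouse and Elane at most 222.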
